A study of Mus musculus with 22 samples.

Results

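The genes described here are 10 genes of the Wnt-driven stem cell program of the intestinal crypt: Lgr5, Rnf43, Axin2, Tnfrsf19, Ascl2, Sox9, Ephb2, Ephb3, Cd44 and Smoc2. They were chosen by name, with earlier results of these data known, and all 10 were found among the 23997 genes of the expression table. The data are 22 RNA-seq libraries of whole colon, all from BALB/c mice of wild type genotype. Controls (CON, n = 8) had distilled water to drink for 3 weeks. In the DSS group (n = 5), distilled water for 3 weeks was joined in the last week by 5% dextran sulfate sodium, which damages the lining of the colon and causes colitis. Mice of HMLS (n = 4) and of TM (n = 5) drank a deep sea water, known here only by these abbreviations, and received the same dextran sulfate sodium in the last week. The sample labels put the mice at 5 weeks of age at the start, and the series' own text speaks of mice of 8 weeks when colitis was induced. The HMLS and TM groups both carried dextran sulfate sodium, so there was no group with deep sea water alone among the libraries analysed here. The labels do not say whether each library stands for its own animal, and the p-values then measure only the spread between these libraries, which may be technical.

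Wnt proteins and R-spondins keep stem cells at the base of the crypt dividing. When Wnt binds its receptors at the cell surface, beta-catenin is no longer destroyed, enters the nucleus and switches on target genes together with factors of the TCF/LEF family. Many of these targets are themselves parts of the pathway, and some of them, such as Axin2 and Rnf43, act back on it as brakes. The cells that leave the crypt base lose this program and mature into absorptive, goblet and other cells.

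All 10 genes were lower in the DSS group than in the control group. The ratios of the means were largest for Lgr5 and Ascl2, the genes most closely tied to crypt base stem cells, at 12.9-fold and 10.02-fold lower (16.4-fold and 35.6-fold without the library DSS6, which held most of the Ascl2 of its group), and smallest for Rnf43 and Ephb2, at 1.40-fold and 1.46-fold. The DSS means behind the ratios of Lgr5 and Ascl2 were only 0.161 and 0.354 FPKM, so those ratios are imprecise. By the test used, no member was called between the 3 colitis groups. Levels are in FPKM, fragments scaled by transcript length and library size, so levels of different genes can be compared per length. Differences were tested with limma on log2(FPKM + 1), and a gene is said to have risen or fallen where its Benjamini-Hochberg adjusted p over all genes tested was below 0.05. Differences on this scale understate the change of genes near 1 FPKM, and for that reason ratios of mean FPKM are given beside them. The number of reads behind each value is unknown, so precision rests on the number of libraries.

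The labelled tissue was checked first. The epithelial adhesion gene Epcam stood at a mean of 721 FPKM in CON and the intestinal factor Cdx1 at 123. The Paneth cell defensins Defa5 and Defa17, which mark small intestine, were listed at 0 in all 22 libraries. They were the only 2 of the 10 Paneth cell and small intestine markers at 0 throughout. Lyz1 of that list stood at 18.8 FPKM in CON1, 5.19 to 18.2 in the other controls and at least 3.57 in the colitis libraries. Over the whole list of 10 Paneth cell and small intestine markers the sum was 515 FPKM in CON1, of which Mptx2 made 472, against 43.5 to 72.6 in the other controls and 19.7 to 67.9 in the colitis libraries. Of the 5 such markers tested, 1 fell in DSS, 2 in HMLS (1 without HMLS7) and none in TM, and their part in the members' differences was not tested. Without CON1 the members called were 10, 9 and 7 in DSS, HMLS and TM, Smoc2 being lost in TM. The libraries held 48089882 to 68733410 reads. The share of reads mapped was 89.9% to 91.9% for CON, 82.3% to 88.9% for DSS, 88.8% to 90.5% for HMLS and 89.5% to 92.7% for TM, so every DSS library mapped less well than every control library. Some libraries stood apart for these genes: DSS6 was the highest of its group for 6 of the 10 members, TM3 for 5 and HMLS7 for 5. These libraries are named where a result rests on them.

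Because the members fell together, their promoter sequences are shown before the values. RefSeq's table for GRCm38.p6, the sequence on which the authors' mm10 build rests, gave 9 windows for 7 of the 10 members; Lgr5, Sox9 and Smoc2 had none. The windows were searched on both strands, over 250 bases upstream of the start, for 3 words that TCF/LEF factors are known to bind. Of 32851 windows of all genes, CTTTGAT was found in 3.21%, CTTTGTT in 5.03%, CTTTGAA in 4.46% and any of them in 12.0%. Of the 9 member windows, 1 held a word. Printed below 5′ to 3′ on the gene's own strand are Ascl2 (chr7:142969265-142969514, minus strand), Axin2 (chr11:108920099-108920348, plus strand) and Cd44 (chr2:102901666-102901915, minus strand), the genes with a window that fell most in DSS on the log2(FPKM + 1) scale. The last is part of the window of a second annotated start of Tnfrsf19 (chr14:61038108-61038237, minus strand), shown because it holds the word. Capitals mark that word, which reads ATCAAAG as printed and is CTTTGAT on the other strand, 202 bases upstream of the start.
Ascl2: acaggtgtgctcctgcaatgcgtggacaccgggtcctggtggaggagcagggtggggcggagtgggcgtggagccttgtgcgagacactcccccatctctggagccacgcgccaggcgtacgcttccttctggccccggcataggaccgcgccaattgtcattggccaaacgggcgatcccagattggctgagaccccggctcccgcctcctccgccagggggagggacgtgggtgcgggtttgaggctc
Axin2: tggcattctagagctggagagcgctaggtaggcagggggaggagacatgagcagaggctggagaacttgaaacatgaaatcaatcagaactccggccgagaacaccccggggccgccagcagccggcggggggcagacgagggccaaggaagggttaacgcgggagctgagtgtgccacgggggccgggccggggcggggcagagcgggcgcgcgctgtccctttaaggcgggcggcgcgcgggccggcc
Cd44: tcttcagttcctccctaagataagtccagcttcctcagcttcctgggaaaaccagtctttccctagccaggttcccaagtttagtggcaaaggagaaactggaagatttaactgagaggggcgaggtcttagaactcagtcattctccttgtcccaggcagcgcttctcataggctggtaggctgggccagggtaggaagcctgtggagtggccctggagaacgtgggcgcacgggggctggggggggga
Tnfrsf19: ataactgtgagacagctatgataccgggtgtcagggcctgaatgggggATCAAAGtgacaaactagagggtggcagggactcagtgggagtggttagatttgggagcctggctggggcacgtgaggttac
The letters show that the proximal promoters of Ascl2, Axin2 and Cd44 hold none of the 3 words in these 250 bases; sites further away were not searched, and a match is a description and not a binding site.

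The receptor and the ubiquitin ligase that set the crypt's sensitivity to Wnt came first. Lgr5, the R-spondin receptor that defines crypt base columnar stem cells (chr10:115450311-115587780, minus strand, GRCm38, GENCODE M21), ranged in CON from 1.42 FPKM through a median of 1.995 to 2.96. In DSS it stood at 0.264, 0.0996, 0.103, 0.300 and 0.0409 FPKM in libraries 1, 2, 5, 6 and 7. Its levels in HMLS were 0.118, 0.179, 0.383 and 0.456 in libraries 3, 6, 7 and 8, and in TM 0.102, 0.0825, 0.317, 0.0269 and 0.148 in libraries 3, 5, 6, 7 and 8. Every colitis library lay below every control library, and the highest of them, HMLS8, reached less than the lowest control. On the log2(FPKM + 1) scale Lgr5 fell by 1.40 ± 0.127 (SE; limma adjusted p = 7.51e-05) in DSS, by 1.25 ± 0.142 (adjusted p = 0.000116) in HMLS and by 1.43 ± 0.122 (adjusted p = 1.39e-05) in TM. The ratios of the means were 12.9-fold, 7.31-fold and 15.4-fold lower.

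Rnf43, a membrane ubiquitin ligase that removes Wnt receptors and is itself a Wnt target (chr11:87662722-87735539, plus strand), ranged in CON from 9.18 through 11.2 to 12.9 FPKM. In DSS its levels were 6.97, 7.19, 11.8, 7.58 and 5.96 FPKM, in HMLS 9.05, 3.07, 7.72 and 11.05, and in TM 5.46, 6.99, 6.49, 5.82 and 6.08. The TM libraries formed a tight band below the controls, whereas DSS5 and HMLS8 lay within the control range. Rnf43 fell by 0.46 ± 0.132 in DSS (adjusted p = 0.0198) and by 0.74 ± 0.092 in TM (adjusted p = 0.000149); in HMLS the difference was -0.56 ± 0.213 (adjusted p = 0.0535). The call in DSS ended without DSS7 (-0.38, adjusted p = 0.0619), and the one in HMLS appeared without HMLS8 (-0.75, adjusted p = 0.0225) or without HMLS3 (-0.67, adjusted p = 0.0456).

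Axin2, the scaffold of the complex that destroys beta-catenin and a widely used readout of Wnt signalling (chr11:108920349-108950783, plus strand), ranged in CON from 6.70 through 9.21 to 10.4 FPKM. Its DSS libraries held 1.65, 1.44, 1.18, 5.43 and 1.37 FPKM, its HMLS libraries 1.58, 2.18, 4.16 and 2.93, and its TM libraries 0.846, 1.87, 2.18, 1.26 and 2.05. No colitis library reached the lowest control, and DSS6 came nearest. Axin2 fell by 1.73 ± 0.215 in DSS, by 1.44 ± 0.163 in HMLS and by 1.91 ± 0.139 in TM (adjusted p = 0.00032, 0.000116 and 1.98e-06), and its means were 3.98-fold, 3.24-fold and 5.36-fold lower; without DSS6 the ratio in DSS was 6.24-fold. The annotation places the gene Gm11670, not analysed here, on the opposite strand within Axin2, and the strand setting of the authors' quantification was not stated.

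Tnfrsf19, also named Troy, is a Wnt target of the tumour necrosis factor receptor family found on crypt base stem cells (chr14:60963875-61046490, minus strand). It ranged in CON from 2.42 through 3.40 to 4.28 FPKM. The DSS libraries held 0.737, 0.417, 0.444, 1.69 and 0.700 FPKM, the HMLS libraries 0.651, 1.87, 0.833 and 0.270, and the TM libraries 1.11, 0.809, 0.698, 0.748 and 0.985. All 14 colitis libraries were below all controls, with DSS6 and HMLS6 highest. Tnfrsf19 fell by 1.33 ± 0.152, 1.27 ± 0.178 and 1.24 ± 0.107 in DSS, HMLS and TM (adjusted p = 0.00026, 0.000342 and 1.39e-05), with means 4.29-fold, 3.77-fold and 3.93-fold lower.

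Of the transcription factors, Ascl2, which sets the identity of Lgr5-positive cells together with beta-catenin (chr7:142966829-142969264, minus strand), ranged in CON from 2.43 through 3.15 to 4.88 FPKM. In DSS it was 0.253, 1.37 and 0.145 FPKM in libraries 1, 6 and 7 and was listed at 0 in libraries 2 and 5. In HMLS it was 0.455 in library 7 and listed at 0 in the other 3. In TM it was 0.173, 0.235 and 0.118 in libraries 3, 6 and 7 and listed at 0 in libraries 5 and 8. Thus 7 of 14 colitis libraries listed no Ascl2 at all, and none of the 8 control libraries did so. The falls on the log2(FPKM + 1) scale were 1.81 ± 0.201, 2.03 ± 0.164 and 2.02 ± 0.135 (adjusted p = 0.000224, 2.51e-05 and 1.68e-06), the largest of the members in each of the 3 comparisons.

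Sox9, a factor of crypt base and progenitor cells that also marks some stromal cells (chr11:112782224-112787760, plus strand), moved less. It ranged in CON from 14.3 through 17.4 to 21.2 FPKM. In DSS it stood at 11.4, 16.4, 8.79, 9.03 and 9.16 FPKM, in HMLS at 7.40, 6.01, 10.7 and 12.1, and in TM at 17.7, 15.6, 13.7, 11.5 and 13.1. HMLS lay wholly below the controls, whereas DSS2, TM3 and TM5 lay within their range. Sox9 fell by 0.67 ± 0.136 in DSS (adjusted p = 0.00354) and by 0.93 ± 0.151 in HMLS (adjusted p = 0.000721). In TM the difference was -0.29 ± 0.107 (adjusted p = 0.0566), and it passed the threshold without TM3 (-0.37, adjusted p = 0.016) or without CON4 (-0.33, adjusted p = 0.0348).

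**Figure D1:**
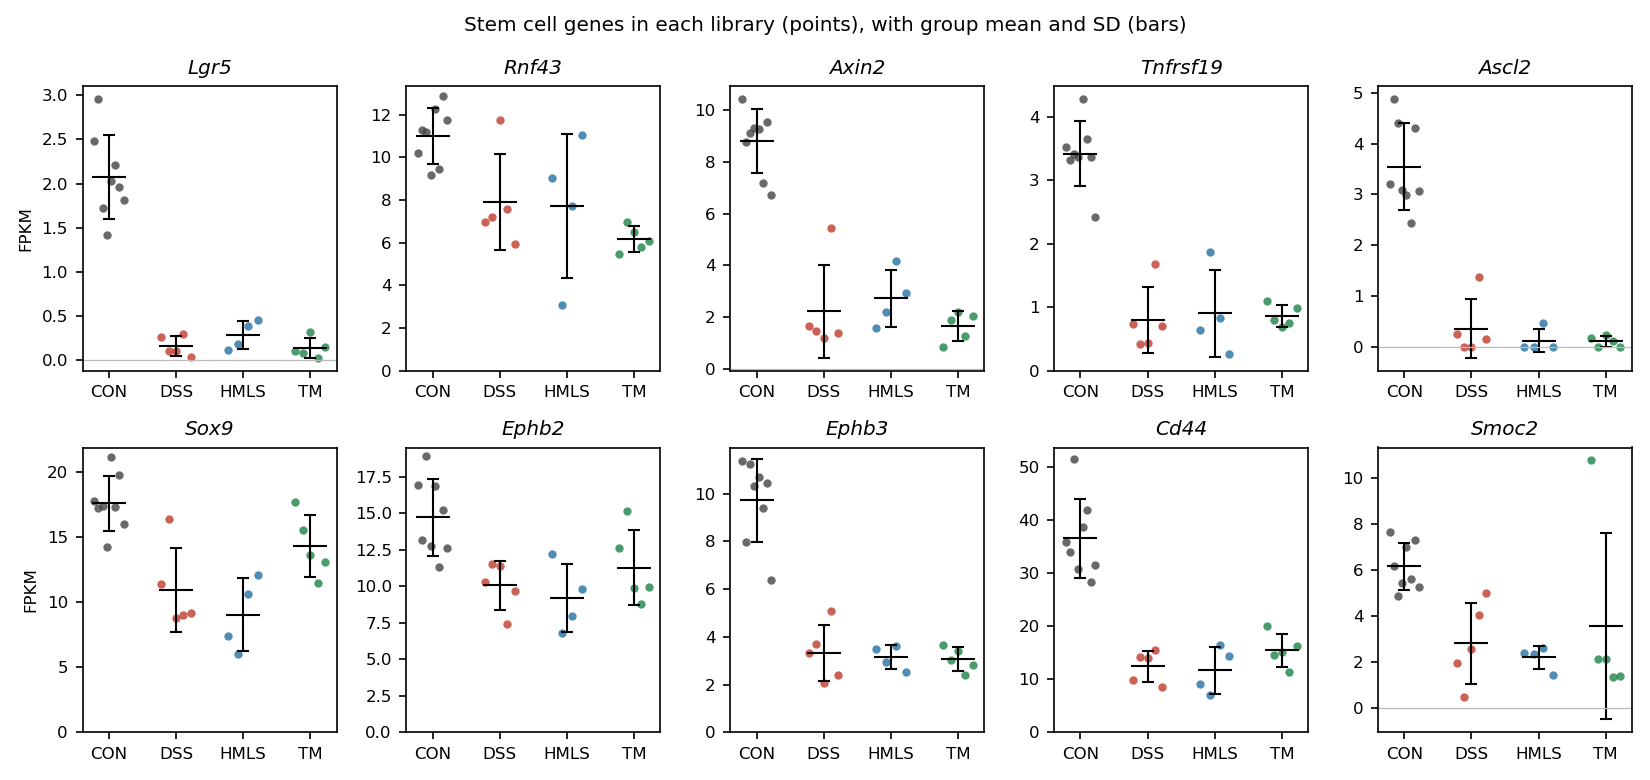
Level of each of the 10 stem cell genes in FPKM (vertical axis, 1 scale per gene) in every library of CON, DSS, HMLS and TM; points are libraries, the long bar is the group mean and the short bars the SD. Lgr5, Axin2, Tnfrsf19, Ascl2, Ephb3 and Cd44 show no overlap between the 8 control and the 14 colitis libraries, while Rnf43, Sox9, Ephb2 and Smoc2 overlap.

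Ephb2 and Ephb3 are receptor tyrosine kinases that Wnt signalling turns on in the crypt; they hold cells at their depth by repulsion from ephrin-B ligands, which are higher towards the surface. Ephb3 (chr16:21204755-21223305, plus strand) ranged in CON from 6.38 through 10.4 to 11.4 FPKM. Its DSS libraries held 3.32, 3.70, 2.07, 5.06 and 2.42 FPKM, its HMLS libraries 3.49, 2.96, 3.64 and 2.53, and its TM libraries 3.67, 3.05, 3.41, 2.39 and 2.83. All colitis libraries lay below all controls, and the HMLS and TM libraries were close to one another. Ephb3 fell by 1.34 ± 0.166, 1.36 ± 0.143 and 1.39 ± 0.128 in DSS, HMLS and TM (adjusted p = 0.00032, 9.24e-05 and 2.55e-05), and its means were 2.93-fold, 3.08-fold and 3.17-fold lower.

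Ephb2 (chr4:136647539-136835988, minus strand), its near relative, changed less: it ranged in CON from 11.3 through 14.2 to 18.9 FPKM. The DSS libraries held 10.3, 11.6, 11.4, 7.46 and 9.66 FPKM, the HMLS libraries 12.2, 6.82, 7.97 and 9.85, and the TM libraries 12.6, 15.1, 9.91, 8.80 and 9.94. In each colitis group at least 1 library lay within the control range. Ephb2 fell by 0.50 ± 0.132 in DSS (adjusted p = 0.0131) and by 0.63 ± 0.154 in HMLS (adjusted p = 0.0065); in TM the difference was -0.36 ± 0.138 (adjusted p = 0.0649), which passed without TM5 (-0.47, adjusted p = 0.0272), without TM3 (-0.41, adjusted p = 0.0486) or without CON6 (-0.41, adjusted p = 0.0419). The ratio of Ephb2 to Ephb3 within a library, looked at after the values had been seen, had a median of 1.53 among controls (1.20 to 1.98), 3.13 with DSS alone (1.47 to 5.52), 2.90 in HMLS (2.19 to 3.89) and 3.51 in TM (2.91 to 4.96). It lay above every control in all HMLS and TM libraries; DSS6 alone of the colitis libraries was within the control range. The ratio of Rnf43 to Axin2, the pair of feedback brakes, had medians of 1.30 for CON (0.979 to 1.75), 4.35 for DSS (1.40 to 9.94), 2.81 for HMLS (1.41 to 5.73) and 3.73 for TM (2.96 to 6.46). Only TM lay wholly above the controls for this ratio.

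Cd44, the hyaluronan receptor of crypt cells and of many leukocytes and stromal cells (chr2:102811141-102901665, minus strand), was the most abundant member. It ranged in CON from 28.4 through 35.0 to 51.5 FPKM. In DSS it held 9.91, 14.2, 13.99, 15.5 and 8.65 FPKM, in HMLS 9.13, 7.0004, 16.5 and 14.3, and in TM 20.1, 14.7, 15.1, 11.4 and 16.3. No colitis library came within the control range. Cd44 fell by 1.49 ± 0.156, 1.61 ± 0.195 and 1.18 ± 0.142 in DSS, HMLS and TM (adjusted p = 0.000125, 0.000159 and 0.00013), with means 2.94-fold, 3.12-fold and 2.36-fold lower.

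Smoc2, a secreted calcium-binding matrix protein listed among the genes of Lgr5-positive cells and also made by fibroblasts (chr17:14279506-14404790, plus strand), varied most in TM, through TM3. It ranged in CON from 4.88 through 5.89 to 7.65 FPKM. The DSS libraries held 1.93, 0.484, 2.55, 4.03 and 4.99 FPKM, the HMLS libraries 2.37, 2.35, 2.58 and 1.44, and the TM libraries 10.8, 2.11, 2.11, 1.35 and 1.38. TM3 exceeded every control, while the other 4 TM libraries were below all of them. Smoc2 fell by 1.05 ± 0.254 in DSS (adjusted p = 0.00863), by 1.17 ± 0.140 in HMLS (adjusted p = 0.000136) and by 0.96 ± 0.309 in TM (adjusted p = 0.034). The call in TM was not stable: it ended without any one of CON1, CON2, CON5, CON7, TM5, TM6, TM7 or TM8 (adjusted p = 0.052 to 0.0961), and without TM3 the fall was 1.39 (adjusted p = 2.8e-05). In TM3 the 11 fibroblast markers summed to 626 FPKM and the 15 leukocyte markers to 128 FPKM, the highest sums of the 22 libraries; their part in the Smoc2 value was not tested.

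Counted over the set, 10 of 10 members fell in DSS, where 13.1% of the 13483 genes tested fell and 27.1% changed in either direction. In HMLS 9 of 10 fell (Rnf43 missed the threshold), where 16.6% of genes fell and 34.1% changed. In TM 8 of 10 fell (Sox9 and Ephb2 missed it), where 11.8% fell and 26% changed. No member rose in any comparison. With quantile normalization 10 of 10 fell in all 3 comparisons. The median difference of the members was -1.33 in DSS, -1.26 in HMLS and -1.21 in TM, against -0.01, 0.00 and 0.01 for all genes tested. Lgr5, Ascl2 and Tnfrsf19 passed the filter on low values only through the control libraries; of the 7 members that passed it also within the colitis groups, 7, 6 and 5 fell in DSS, HMLS and TM. The 3 comparisons share the same 8 control libraries and are not independent of one another. For Lgr5, Axin2, Tnfrsf19, Ascl2, Ephb3 and Cd44 all 14 colitis libraries lay below all controls; the count was 12 of 14 for Rnf43 and Smoc2, 11 for Sox9 and 9 for Ephb2. Taken group by group, Lgr5, Axin2, Tnfrsf19, Ascl2, Ephb3 and Cd44 thus lay wholly below CON in each. They were joined by Sox9 and Smoc2 in HMLS and by Rnf43 in TM. A group wholly below CON was found for 3.72% of genes in DSS, 7.21% in HMLS and 3.4% in TM. The share of all genes with all 14 colitis libraries below all controls was not taken. In whole tissue, fewer cells of a type and less RNA per cell cannot be told apart.

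In DSS the share of reads mapped moved with the groups. With that share as a covariate 5 of the 10 members were still called (Lgr5, Axin2, Tnfrsf19, Ascl2 and Smoc2, each at adjusted p = 0.03), while over all genes the calls went from 3655 to 26. Of these, Lgr5, Tnfrsf19 and Ascl2 passed the filter on low values only through the control libraries. Among the members that passed it also within the colitis groups, only Axin2 and Smoc2 stayed called. Ephb3 (-1.45, adjusted p = 0.0541), Cd44 (-1.29, 0.0601), Sox9 (-0.47, 0.313), Ephb2 (-0.41, 0.379) and Rnf43 (-0.22, 0.616) were then not called. As no DSS library mapped as well as any control, mapping and treatment cannot be told apart in DSS for any of the 10 members. In HMLS and TM, whose mapped shares overlapped those of CON, 9 and 8 members were called with the covariate, as without it.

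**Figure D2:**
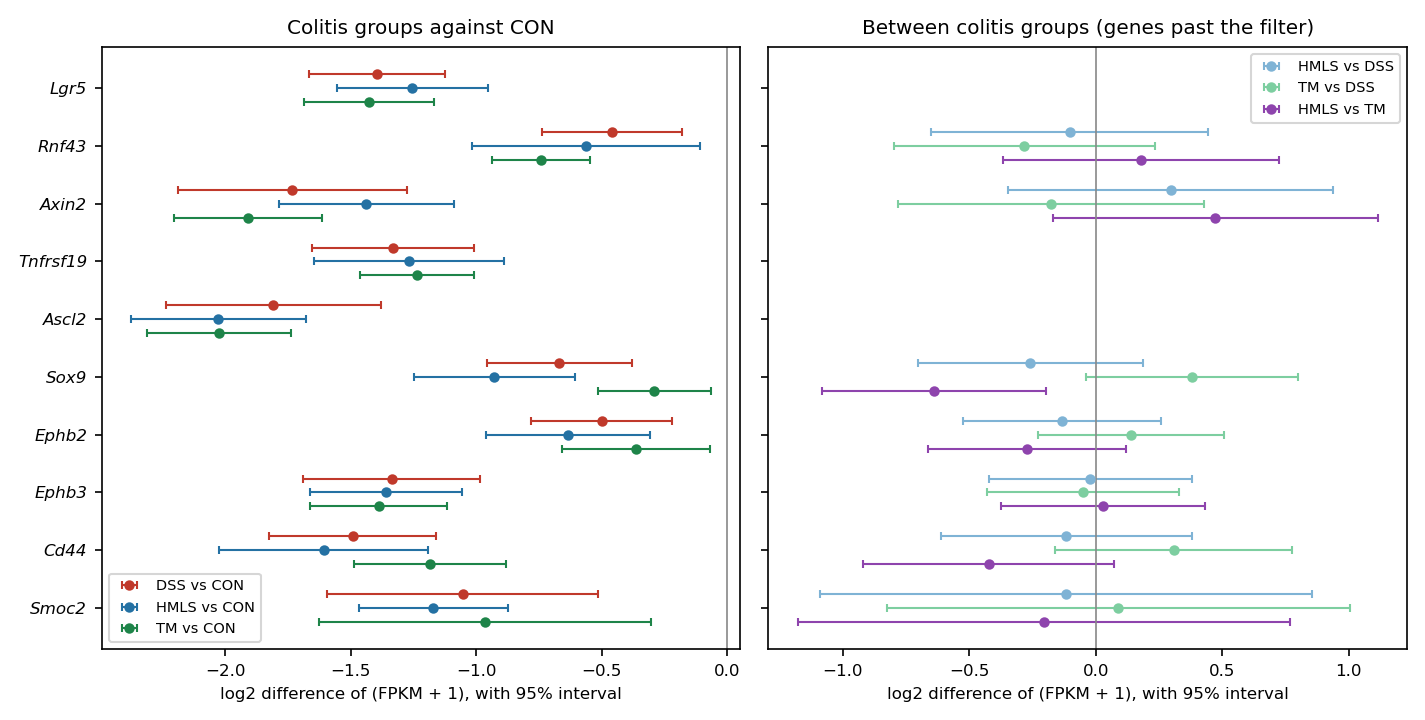
Difference of each stem cell gene between groups on the log2(FPKM + 1) scale (horizontal axis), with its 95% interval, for the 3 colitis groups against CON (left) and among the colitis groups (right, for the 7 genes past the filter). On the left all 30 values lie below 0; on the right 20 of 21 intervals include 0, the exception being Sox9 in HMLS against TM, which missed the adjusted threshold.

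The question of the study was whether deep sea water alters colitis, which the comparisons among the colitis groups address. By limma no member differed (0 of 7 tested in each comparison, where 0% of 13341 genes were called). At an unadjusted limma p under 0.05 these comparisons had 740 genes (5.55%) for HMLS vs DSS, 1260 (9.44%) for HMLS vs TM and 367 (2.75%) for TM vs DSS. With no true difference a share near 0.05 is expected. The largest difference relative to its error was that of Sox9, at -0.64 ± 0.208 for HMLS against TM (95% interval -1.08 to -0.20, adjusted p = 0.437). For Axin2 the differences were 0.30 (-0.35 to 0.94) in HMLS vs DSS and -0.18 (-0.78 to 0.43) in TM vs DSS. For Ephb3 they were -0.02 (-0.42 to 0.38) and -0.05 (-0.43 to 0.33), and for Cd44 -0.12 (-0.61 to 0.38) and 0.31 (-0.16 to 0.78). Ephb2 had -0.13 (-0.52 to 0.26) and 0.14 (-0.23 to 0.51), Rnf43 -0.10 (-0.65 to 0.44) and -0.28 (-0.80 to 0.23), and Sox9 -0.26 (-0.70 to 0.19) and 0.38 (-0.04 to 0.80). Smoc2 was the least precise, at -0.12 (-1.09 to 0.86) and 0.09 (-0.83 to 1.01). These intervals leave room for differences of either sign, and a value that misses the threshold does not show that the groups were alike. Lgr5, Ascl2 and Tnfrsf19 were too low in the colitis groups for the filter. Without it Lgr5 differed by 0.14 ± 0.0958 in HMLS vs DSS and by -0.03 ± 0.0903 in TM vs DSS, Tnfrsf19 by 0.06 ± 0.222 and 0.09 ± 0.209, and Ascl2 by -0.22 ± 0.209 and -0.21 ± 0.197, none of them called (adjusted p = 0.867 to 1).

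As a mean over the 10 genes, each colitis library sat between -0.82 (DSS6) and -1.44 (HMLS6) below the control mean on the log2 scale, and each control library between -0.21 and 0.12. The libraries nearest to the controls were DSS6, TM3 (-0.92) and HMLS7 (-1.01). DSS6 had the highest Lgr5, Axin2, Tnfrsf19, Ascl2, Ephb3 and Cd44 of its group and at the same time the lowest Ephb2; 85.1% of its reads were mapped. Without DSS6 the count in DSS was 10 of 10, without TM3 the count in TM was 10 of 10, and without HMLS7 the count in HMLS was 9 of 10.

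**Figure D3:**
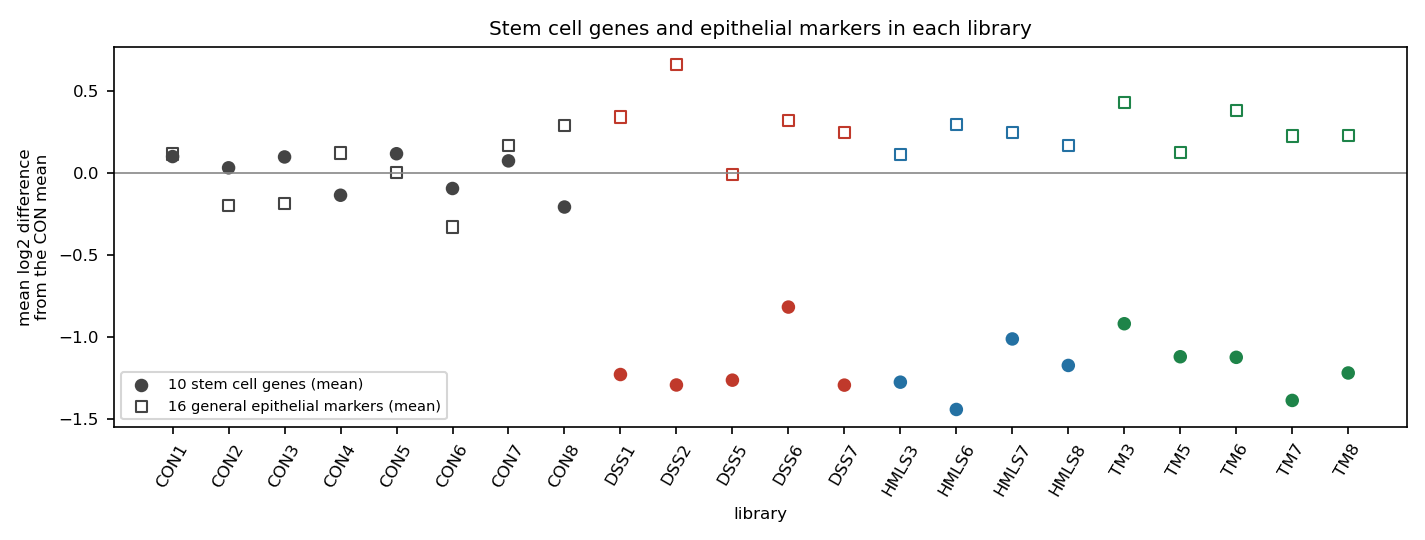
Mean log2(FPKM + 1) difference from the CON mean (vertical axis) of the 10 stem cell genes (filled circles) and of the 16 general epithelial markers (open squares) in each of the 22 libraries. Stem cell genes lie between -0.82 and -1.44 in every colitis library, while the epithelial markers lie at -0.01 or above in all of them.

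Genes of the surrounding pathway did not move as one. Of all genes tested, 13.1%, 16.6% and 11.8% fell in DSS, HMLS and TM, and 14%, 17.5% and 14.3% rose. The list counts below are to be read beside these shares. Of 17 other intestinal stem cell genes tested, 7 fell and 1 rose in DSS, 8 and 1 in HMLS, and 6 and 1 in TM. Cdca7, a chromatin factor gene of Lgr5-positive cells, fell by 1.498 ± 0.318 in DSS, 1.28 ± 0.198 in HMLS and 1.29 ± 0.156 in TM (adjusted p = 0.00481, 0.000588 and 0.000135). Soat1, a cholesterol-esterifying enzyme, fell by 0.83, 0.94 and 0.64, the cell cycle kinase Cdk6 by 0.69, 0.65 and 0.82, and the homeodomain gene Hopx by 0.59, 0.65 and 0.56. Prom1, which encodes the membrane protein CD133, went the other way: it rose by 0.55 ± 0.120 in DSS (adjusted p = 0.00541) and 0.51 ± 0.0894 in TM (adjusted p = 0.00141), and in HMLS the difference was 0.36 (adjusted p = 0.0622). The medians of this list were -0.29, -0.35 and -0.22. Within the colitis groups 16 of its genes passed the filter on low values, against 17 here. Olfm4, named after its values were seen, is a stem cell marker of the small intestine and had a mean of 0.0310 FPKM in CON.

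Among 18 other Wnt target genes tested, 5 fell and 1 rose in DSS, 5 and 1 in HMLS, and 6 and 1 in TM, with medians of -0.34, -0.35 and -0.27. Bambi, a decoy receptor of the TGF-beta family, fell from a mean of 2.14 FPKM in CON to 0.369, 0.521 and 0.262 FPKM (differences of -1.17 ± 0.148, -1.03 ± 0.168 and -1.29 ± 0.148; adjusted p = 0.000335, 0.000741 and 9.44e-05). These colitis means of Bambi lay below the 1 FPKM of the filter on low values. Within the colitis groups 15 genes of this list passed that filter, against 18 here. Tiam1, an activator of the GTPase Rac, fell by 0.68, 0.67 and 0.59, and the Wnt receptor Fzd7 by 0.60, 0.59 and 0.50. Myc and Ccnd1, classical Wnt targets that drive the cell cycle, fell in HMLS (-1.002 and -0.96) and were not called in DSS (-0.53 and -0.32) or TM (-0.46 and -0.41). Zbtb16, a zinc finger factor, rose by 1.79 in DSS and 1.74 in TM (adjusted p = 0.0129 and 0.0117).

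The receptors and relay of the pathway showed changes in both directions: of 32 genes tested, 6 rose and 4 fell in DSS, 8 and 4 in HMLS, and 6 and 4 in TM. Of all genes tested, 14%, 17.5% and 14.3% rose and 13.1%, 16.6% and 11.8% fell. Tcf7l2, which encodes the TCF factor TCF4 of the gut epithelium, rose from a mean of 15.9 FPKM in CON to 40.0 in DSS, 34.8 in HMLS and 27.8 in TM (1.26 ± 0.212, 1.12 ± 0.169 and 0.79 ± 0.167; adjusted p = 0.00152, 0.000503 and 0.00407). The Wnt receptors Fzd2 and Fzd10 fell in DSS by 0.78 ± 0.123 and 0.62 ± 0.137, and beta-catenin's kinase Gsk3b rose by 0.44 ± 0.103 in DSS and 0.51 ± 0.106 in HMLS. Of 23 Wnt ligand, secretion and R-spondin genes only 7 were high enough to test; the single call was Wls, the carrier of secreted Wnt proteins, which fell by 0.26 ± 0.0831 in TM (adjusted p = 0.0322). Without TM3, 10 of the 32 rose and 5 fell in TM. The fibroblast ligand Wnt5a had differences of -0.42, -0.17 and -0.06 (adjusted p = 0.0666, 0.304 and 0.83).

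Eph and ephrin genes other than the 2 members also split. Of 11 tested, 4 rose and 3 fell in DSS, and 3 rose and 3 fell in both HMLS and TM. Efnb2, an ephrin-B ligand of Ephb2 and Ephb3, rose from a mean of 13.7 FPKM in CON to 31.2, 33.5 and 27.5 (1.15 ± 0.236, 1.26 ± 0.242 and 0.995 ± 0.219; adjusted p = 0.00397, 0.00195 and 0.00539). Epha2, a receptor for ephrin-A ligands, rose by 1.24, 1.24 and 0.91, and its ligand Efna1 by 0.87, 0.77 and 0.71, whereas Epha4 fell by 0.54, 0.63 and 0.60. In the Notch list, which governs the choice between absorptive and secretory fate, 3 of 12 genes rose in each comparison (Adam10, Maml1 and Rbpj) and 2, 4 and 2 fell, Notch1 among them in each (-0.50, -0.47 and -0.34).

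Cell cycle genes were followed in a list of their own. Of 24 proliferation genes 6 fell in DSS, 11 in HMLS and 3 in TM, none rose, and the medians were -0.50, -0.75 and -0.42. Over all genes tested 13.1%, 16.6% and 11.8% fell, so the count in TM was near the share of all genes. Mcm6, a subunit of the replicative helicase, fell by 1.36 ± 0.341, 1.97 ± 0.363 and 1.37 ± 0.352 (adjusted p = 0.0107, 0.00186 and 0.0124), and the replication clamp Pcna by 0.54, 0.64 and 0.63. Without TM3 the count in TM was 15 of 24. The summed level of the list was 333 FPKM in DSS1 and 330 in TM3, against group medians of 136 and 137. Among controls it was highest in CON1, at 397 against a median of 215. The count in DSS without DSS1 was not taken.

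**Figure D4:**
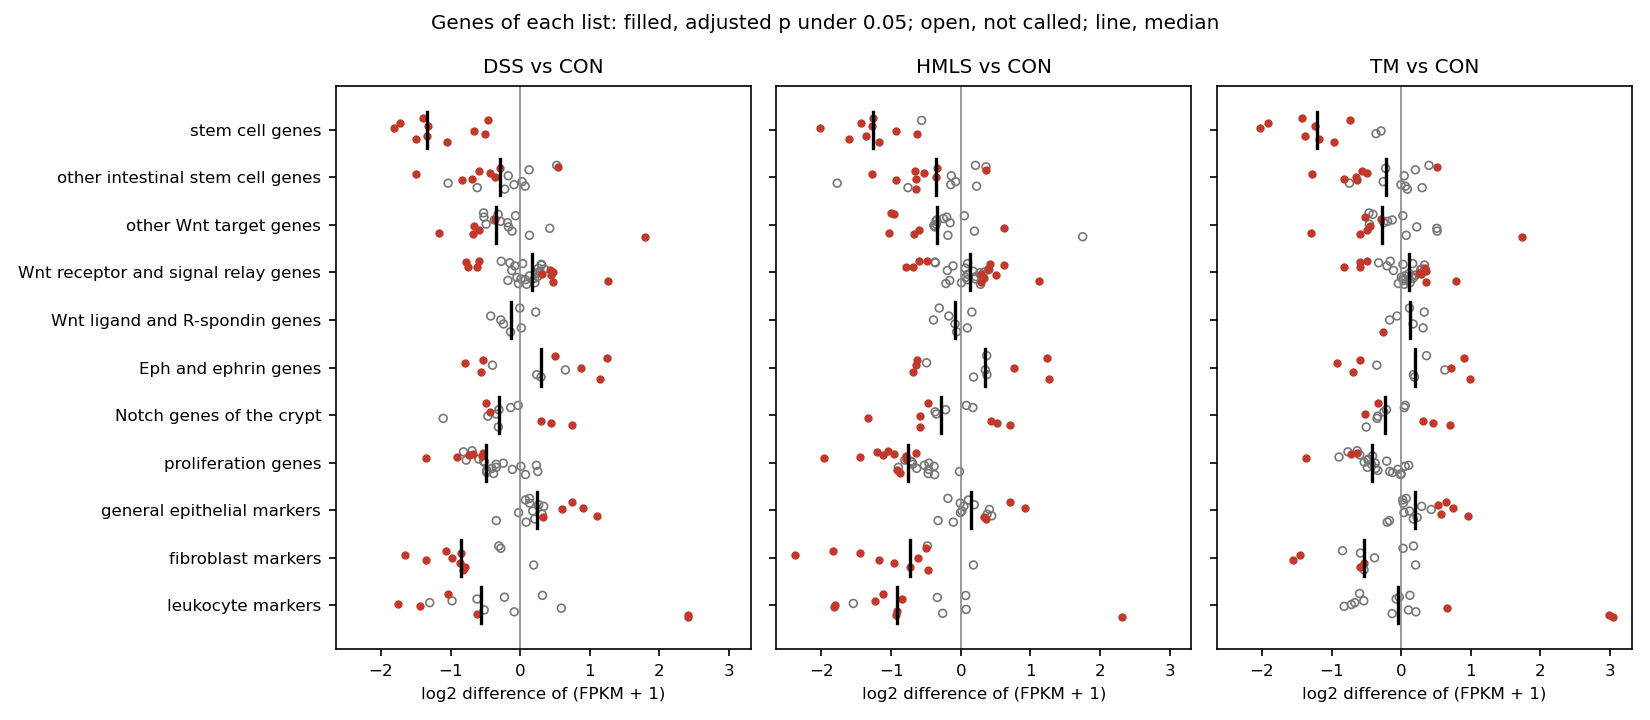
Difference from CON on the log2(FPKM + 1) scale (horizontal axis) of each gene in the 10 stem cell genes and in 10 lists of pathway and cell type genes (rows), in DSS, HMLS and TM; filled points passed an adjusted p of 0.05, open points did not, and bars are list medians. Of the lists plotted, the stem cell genes have the lowest median in each panel (-1.33, -1.26 and -1.21), and the general epithelial markers lie mostly above 0; adipocyte markers, not plotted, had medians of -1.98, -1.15 and -1.87.

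Markers of whole cell types moved as well. General epithelial markers did not fall: of 16, 5 rose in DSS, 4 in HMLS and 5 in TM, among them Cdh1 (0.74, 0.71 and 0.65) and Cldn7 (0.90, 0.92 and 0.74), and their summed level ranged over 6001 to 10124 FPKM for CON, 7911 to 11950 for DSS, 8748 to 9045 for HMLS and 8245 to 10726 for TM. Centring each library on these 16 markers moved the median of all genes to -0.32, -0.20 and -0.27 in DSS, HMLS and TM, and turned the split of calls from 1889 higher and 1766 lower to 289 and 4277 in DSS, from 2339 and 2226 to 626 and 3291 in HMLS, and from 1924 and 1586 to 351 and 4239 in TM. Of the 16 markers themselves, 4 were higher and 1 lower in DSS with quantile normalization, and 3 and 1 on the centred scale. All 10 members were lower and called in each of the 3 comparisons on the centred scale. Prom1 (0.23, 0.16 and 0.23) was no longer called there, and Gsk3b (0.13, 0.30 and -0.07) was not called and turned its sign in TM; Tcf7l2 (0.94, 0.91 and 0.51) and Efnb2 (0.83, 1.06 and 0.71) were still called in each. Of the 32 receptor and relay genes, 1 was higher and 7 lower on that scale in DSS, 1 and 6 in HMLS, and 1 and 8 in TM; of the 12 Notch genes these were 1 and 7, 1 and 6, and 1 and 7. On the same scale Maml1 (0.12, 0.31 and 0.18) and Rbpj (-0.02, 0.23 and 0.03) were not called, Zbtb16 was lost in DSS (1.48, adjusted p = 0.0525), Efna1 in DSS and TM (0.56 and 0.43), and Epha2 in HMLS (1.04, adjusted p = 0.0987).

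Fibroblast markers fell: 8 of 11 in DSS, 9 in HMLS and 4 in TM, with Col3a1, a collagen chain, at -1.66 ± 0.245, -2.38 ± 0.199 and -1.46 ± 0.428; without TM3 the count in TM was 8. Their sum ranged over 372 to 527 FPKM for CON, 124 to 294 for DSS, 182 to 244 for HMLS and 209 to 626 for TM. Of the leukocyte markers tested, 2 of 14 rose and 4 fell in DSS, 1 of 13 rose and 7 fell in HMLS, and 3 of 14 rose and none fell in TM; the sum of all 15 in the table was 25.8 to 85.6 FPKM for CON, 19.6 to 89.9 for DSS, 17.9 to 41.3 for HMLS and 32.3 to 128 for TM. The neutrophil genes S100a8 and S100a9 rose in DSS (2.41 and 2.40) and TM (2.98 and 3.04), and the pan-leukocyte gene Ptprc fell in DSS and HMLS (-1.04 and -1.12). Without DSS6, 3 leukocyte markers rose and 2 fell in DSS; without HMLS7, none of 12 rose and 3 fell in HMLS. Cd44, Sox9, Axin2 and Smoc2 are also known from stromal or blood cells, and the part of these cells in their values was not tested.

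Other cell types of the gut wall moved too. Of 6 adipocyte markers tested, 5 fell in DSS, none in HMLS and 5 in TM, and the sum of all 7 was 55.9 to 527 FPKM for CON, 26.8 to 79.3 for DSS, 29.8 to 262 for HMLS and 33.9 to 82.5 for TM. Endothelial markers fell in 3, 5 and 1 of 7 cases (medians -0.52, -0.53 and -0.17; 2 in DSS without DSS6 and 3 in HMLS without HMLS7), with sums of 18.8 to 42.6 FPKM for CON, 12.97 to 27.3 for DSS, 12.4 to 27.0 for HMLS and 23.9 to 32.3 for TM. Smooth muscle markers fell in 3, 0 and 4 of 9 cases (medians -0.56, -0.06 and -0.41), with sums of 1318 to 2585 FPKM for CON, 602 to 2302 for DSS, 1397 to 2573 for HMLS and 881 to 1906 for TM. Of 11 goblet cell markers, 1 rose and none fell in DSS, none being called without DSS6, 4 fell in HMLS and 1 in TM (medians -0.42, -0.98 and -0.08). Their sums were 11099 to 16936 FPKM for CON, 9617 to 17739 for DSS, 6667 to 10531 for HMLS and 9136 to 15559 for TM. None of 9 enteric glia and neuron markers was called in DSS, HMLS or TM against CON. The part of these cell types in the members' differences was not tested. With the share of reads mapped as a covariate, none of the genes of the lists described above other than the members was called in DSS.

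The members' profiles over the 22 libraries were compared with those of 13176 genes whose control mean reached 1 FPKM. Likeness was the root mean square difference between standardised log2(FPKM + 1) values, in SD units, to the mean of the members, and its median over all genes was 1.28. The nearest genes outside the set were Piwil4 (0.340), Samd5 (0.341), Spsb4 (0.360), Oit1 (0.384), Rcn1 (0.385), Armcx6 (0.386), Parp1 (0.387) and Dhodh (0.394). Samd5, for example, had means of 8.80 ± 2.41 FPKM (SD, n = 8) for CON, 1.90 ± 0.673 (n = 5) for DSS, 1.33 ± 0.883 (n = 4) for HMLS and 2.03 ± 0.187 (n = 5) for TM, and Parp1, which senses DNA breaks, had 13.8 ± 2.28, 6.70 ± 1.43, 5.97 ± 0.688 and 8.25 ± 1.30. Within the set, Lgr5 and Ascl2 were nearest to each other (0.319). Axin2 (0.332) and Ephb3 (0.325) were also nearest to Ascl2, Tnfrsf19 (0.361) and Cd44 (0.47) to Ephb3, and Sox9 (0.597) and Rnf43 (0.775) to Cd44. Ephb2 was nearest to Sox9 (0.692) and Smoc2 to Tnfrsf19 (0.702), so Rnf43, Smoc2 and Ephb2 were the members least like any other. These distances describe the 22 libraries and are shaped mostly by the gap between CON and the colitis groups.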

How the data were processed

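Whole colon RNA was sequenced in 22 libraries (8 CON, 5 DSS, 4 HMLS, 5 TM), grouped by the labels. Per the labels, tissue was frozen, RNA extracted with Trizol and libraries made with a TruSeq stranded kit for total RNA. Reads went through bcl2fastq 2.20, Bowtie, TopHat2 2.0.13 and Cufflinks 2.2.0 on mm10, per the submitters' processing notes. The authors deposited 1 table of 23997 genes, read here as FPKM because Cufflinks is named and the table gives no unit, and a table with the count of reads and mapped reads and the percent of reads mapped. FPKM divides by library total, so very abundant genes that rise lower the others. No pair of libraries held identical values.

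The test was limma 3.58.1 (R 4.3.3; trend, robust) on log2(FPKM + 1), for genes that reached 1 FPKM in 4 or more of the libraries fitted, with Benjamini-Hochberg adjustment over all genes tested and a threshold of 0.05. CON was fitted with 1 colitis group at a time; comparisons among colitis groups shared 1 fit of 3 groups. Intervals are 95%. The fits were also run on simulated libraries, with changes placed only in genes above a set level and no difference in the share mapped. That run does not show how changes in Lgr5, Ascl2 and Tnfrsf19, which lay below the level, are recovered. Among the colitis groups Axin2 and Smoc2 lay below the level too, and the same holds for them there. Its outcome is not given here. Named were the 10 members, up to 4 genes of each list with the smallest p in DSS vs CON and up to 4 more from HMLS or TM vs CON. The 8 most alike genes, predicted genes, small RNAs and antigen receptor segments left out, were named as well. Not all named genes are printed. The members and lists were chosen with earlier results of these data known. Libraries that share a number in their titles were compared by the correlation of their deviations from the group means. It was 0.137 to 0.432 in TM vs DSS, -0.20 to 0.32 in DSS vs CON and -0.0034 to 0.20 in TM vs CON. It was -0.33 to 0.33 in HMLS vs DSS, -0.11 to 0.071 in HMLS vs CON and -0.23 to 0.048 in HMLS vs TM. In that order, the same-numbered library was the best match in 1 of 3, 1 of 5, 1 of 5, 1 of 2, 0 of 4 and 0 of 4 pairs. Whether the numbers pair libraries is not known. Filters, pseudocount, scaling, fit, covariate, block and left-out libraries were varied. Gene positions are those of GENCODE M21, and promoters those of RefSeq GRCm38.p6.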

Additional observations from a re-analysis of the deposited data

Results flagged for a closer look

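Of 40 sets of values (10 genes in 4 groups), 5 held a library set apart from the rest of its group by a gap that Dixon's criterion passes; chance gives about 1 in 20. Axin2 stood at 5.43 FPKM in DSS6 against 1.18 to 1.65 in the other DSS libraries, and Ascl2 at 1.37 in the same library against 0 to 0.253. Ascl2 was 0.455 FPKM in HMLS7 and listed at 0 in the other HMLS libraries. With the others all at 0 any value above 0 is flagged, so the rate of 1 in 20 does not apply to this set. Smoc2 reached 10.8 FPKM in TM3 against 1.35 to 2.11 in the other TM libraries. Tnfrsf19 was 2.42 FPKM in CON8 against 3.33 to 4.28 in the other controls. Without DSS6 Axin2 fell by 2.02 and without TM3 Smoc2 fell by 1.39; both stayed called.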

How the results depend on the processing

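Under the 10 alternatives the count of members called was 9 to 10 in DSS vs CON except with the share of reads mapped as covariate (5), 8 to 10 in HMLS vs CON, 7 to 10 in TM vs CON and 0 among the colitis groups; all members were lower than CON under each. Leaving out 1 library gave 9 to 10, 9 to 10, 7 to 10, and 0 in each comparison of colitis groups. With the replicate number as a block the counts were 9 (Rnf43 lost), 8 (Ephb2 lost, adjusted p = 0.0568), 7 (Smoc2 lost, adjusted p = 0.154) and 0. In TM vs DSS no gene was called with or without the block. With the block all genes called were 2176 in DSS vs CON against 3655, 753 in HMLS vs CON against 4565 and 2000 in TM vs CON against 3510, and with the covariate 26 in DSS vs CON. Leaving out HMLS3 gave 1 gene in HMLS vs DSS and 3 in HMLS vs TM, against 0. Signs turned only among the colitis groups, for differences that were not called. In HMLS vs DSS these were Rnf43 (0.0042) and Ephb3 (0.087) on the epithelial scale, Ephb3 (0.011) with quantile normalization and Smoc2 (0.23) with the covariate. In TM vs DSS they were Axin2 (0.12) and Cd44 (-0.024) with the covariate and Smoc2 (-0.55) with the replicate block, and in HMLS vs TM Ephb3 (-0.020) with the block. With 1 library left out the ranges were, in HMLS vs DSS, Rnf43 -0.29 to 0.23, Ephb3 -0.13 to 0.11, Cd44 -0.29 to 0.085 and Smoc2 -0.42 to 0.086; in TM vs DSS, Axin2 -0.28 to 0.11, Ephb3 -0.16 to 0.083 and Smoc2 -0.33 to 0.29; and in HMLS vs TM, Rnf43 -0.012 to 0.51, Ephb3 -0.034 to 0.11 and Smoc2 -0.36 to 0.22. The cause was not tested. List counts without DSS6, TM3 or HMLS7, ratios of means without DSS6 and list genes on other scalings were added after the data had been seen. Rnf43 in DSS vs CON was also lost with all 4 groups in 1 fit (adjusted p = 0.0659). Depth per gene is unknown, and the number of libraries limits precision.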
